A study of Mus musculus with 2 samples.

Results

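The Slc25 genes encode carrier proteins that move nucleotides, phosphate, carboxylic acids, amino acids and cofactors, mostly across the inner mitochondrial membrane. The members described here were the protein-coding rows of the gene tables whose identifier maps to a mouse symbol that starts with Slc25a and a number, without the mitoferrin iron carriers Slc25a37 and Slc25a28. This gave 45 genes of the 21474 protein-coding genes in both tables. The libraries were total RNA-seq of MEL cells, an immortalized mouse erythroleukemia line, treated with 2% dimethyl sulfoxide (DMSO) for 5 days. There was 1 group of 2 libraries, replicate 2 and replicate 1, both of treated cells, so no effect of DMSO can be read from these data. The labels number them as biological replicates but tie both to a single biosample record, and part of what separates them may therefore be technical.

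A carrier of this family is a single chain that binds its solute from one side of the membrane and then opens to the other, often in exchange for a second solute. The ADP/ATP carriers and the phosphate carrier feed ATP synthase and bring its product out, the carboxylate and aspartate carriers link the citric acid cycle to the cytosol, and others supply the matrix with cofactors. In red cell precursors the matrix makes the first intermediate of heme, for which glycine must enter, and DMSO is a classical inducer of hemoglobin synthesis in MEL cells.

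The summed counts were 90856320 in replicate 2 and 65109488 in replicate 1, so that the limit set by a count of 0 (3 counts) was 0.0330 CPM in replicate 2 and 0.0461 CPM in replicate 1 (CPM, counts scaled to a library of a common size). The 45 carrier genes took 162747 of these estimated counts (0.179%) in replicate 2 and 118448 (0.182%) in replicate 1. All 9 erythroid markers, the globins, Alas2, Gata1, Klf1, Tal1 and Epor, reached 1 TPM in each library (TPM, transcripts scaled for length and library size). Of 15 markers of other blood and connective tissue cells, 1 reached that level, the platelet gene Pf4 at 24.7 TPM in replicate 2 and 34.1 TPM in replicate 1. Markers of testis, brain, liver, striated muscle, kidney and brown fat were all under 0.1 TPM. In this total RNA the nuclear protein-coding genes held 12.7% of all TPM in replicate 2 and 13.2% in replicate 1, so a TPM of 1 stands for a larger share of messenger RNA than it would in polyadenylated RNA.

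Most of the family was detected at this threshold, and a handful of genes held most of its RNA. Both libraries put 28 of the 45 members (62.2%) at 1 TPM or above, against 37.3% of all protein-coding genes. Slc25a16, Slc25a33 and Slc25a14 passed in 1 library only and 14 members were below it in both. Over the 45 members the median of the mean TPM was 1.84, and over all protein-coding genes it was 0.085. Among the genes that passed the threshold in both libraries, the medians were 4.25 TPM for members and 4.44 TPM for all protein-coding genes, so the expressed carriers were not set at a higher level than expressed genes in general. Summed over the family, TPM was 246 in replicate 2 and 313 in replicate 1, which is 0.215% ± 0.0307 of what the nuclear protein-coding genes held together (SD, n = 2). The 5 highest members, Slc25a3, Slc25a5, Slc25a4, Slc25a39 and Slc25a11, held 63.7% ± 0.226 of the family's TPM (SD, n = 2). On GRCm38 these genes lie at chr10:91116574-91124059 (Slc25a3, minus strand), chrX:36795651-36798807 (Slc25a5, plus strand), chr8:46206797-46211284 (Slc25a4, minus strand), chr11:102402985-102407946 (Slc25a39, minus strand) and chr11:70644196-70647479 (Slc25a11, minus strand).

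**Figure D1:**
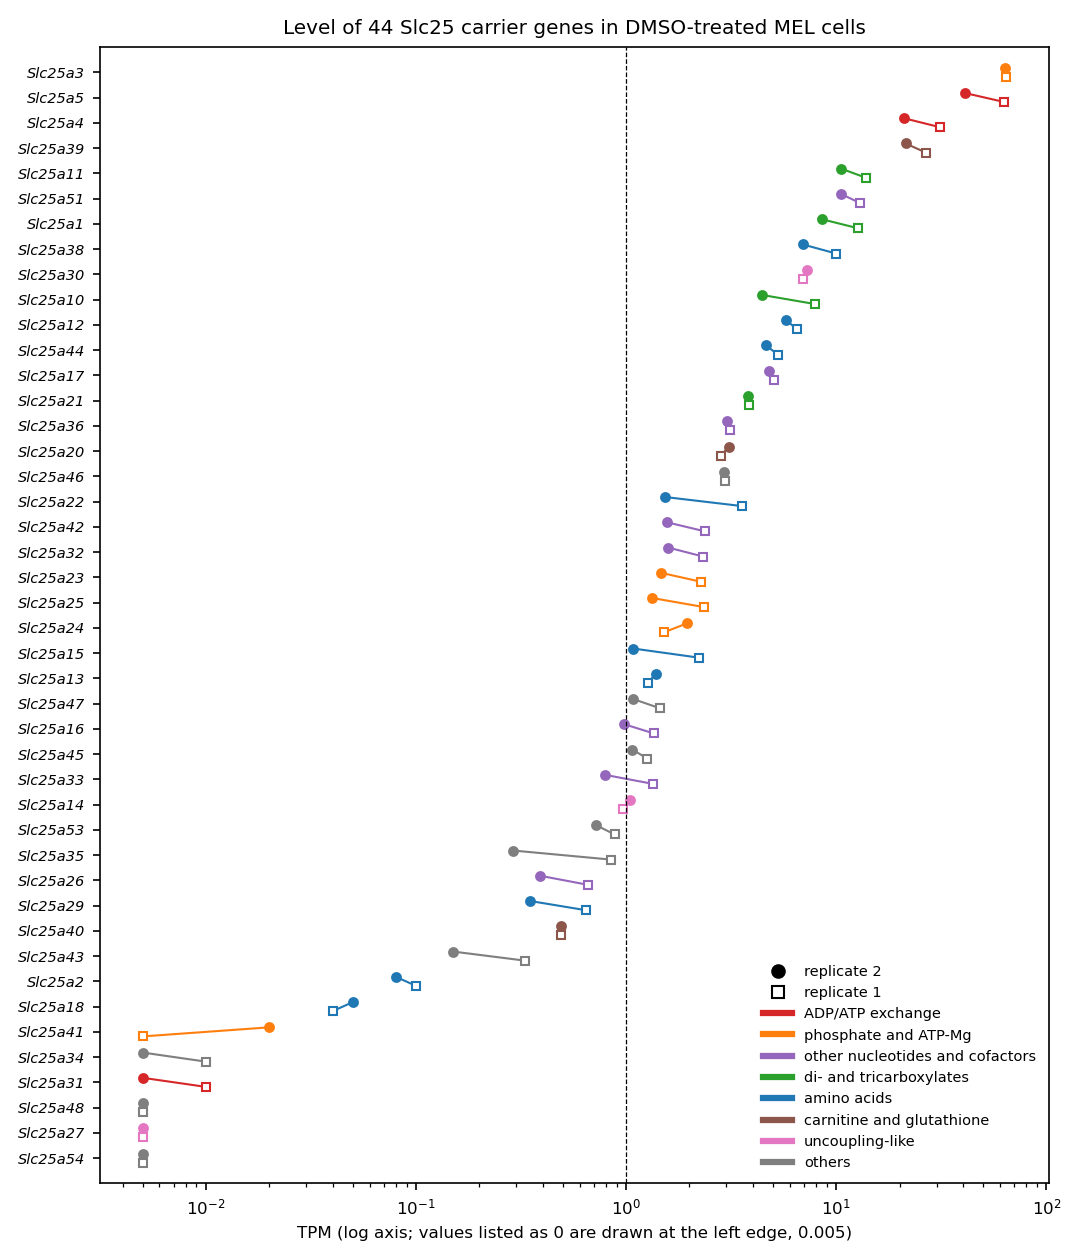
Level of each of 44 carrier genes in TPM on a log axis, with circles for replicate 2, squares for replicate 1 and colours for what is carried. The dashed line is 1 TPM; Slc25a3 lies at the top near 64 TPM in both libraries, 27 genes have both symbols to the right of the line, and genes listed at 0 are drawn at the left edge.

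Slc25a3 encodes the phosphate carrier, and its transcripts differ by a pair of neighbouring exons of which a transcript holds either one or the other. The upstream exon is known from striated muscle and the downstream exon from most other tissues. The sequences are shown because they carry the isoform result. They come from the GRCm38 genome on the minus strand of chromosome 10, at chr10:91122207-91122331 for the upstream and chr10:91121922-91122043 for the downstream exon, 125 and 122 bases long. Capitals mark the bases that differ between the exons when they are aligned without gaps at their 3′ ends, together with the 3 bases of the upstream exon that lie outside the alignment.
upstream exon: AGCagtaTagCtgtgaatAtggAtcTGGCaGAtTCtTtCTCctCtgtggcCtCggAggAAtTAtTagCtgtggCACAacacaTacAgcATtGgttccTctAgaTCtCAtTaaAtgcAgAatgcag
downstream exon: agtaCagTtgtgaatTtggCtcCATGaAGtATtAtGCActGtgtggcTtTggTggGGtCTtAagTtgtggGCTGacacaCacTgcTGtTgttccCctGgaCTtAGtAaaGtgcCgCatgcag
Over the 122 aligned columns 77 bases match, an identity of 63.1%. Transcripts with the downstream exon summed to 59.8 TPM in replicate 2 and 56.7 TPM in replicate 1. Those with the upstream exon summed to 0.62 TPM in replicate 2 and 0.90 TPM in replicate 1. Among the latter, a protein-coding transcript was at 0.56 TPM in replicate 2 and 0.50 TPM in replicate 1. A transcript annotated as a target of nonsense-mediated decay was at 0.06 TPM in replicate 2 and 0.40 TPM in replicate 1. The downstream form thus held 99.0% of the pair in replicate 2 and 98.4% in replicate 1, or 98.7% ± 0.379 (SD, n = 2), as the deposited estimates split the reads. The striated muscle markers Myh6 and Ckm were listed at 0 TPM in both libraries, and the remaining one, Acta1, was at 0.04 TPM in replicate 2 and 0.03 TPM in replicate 1.

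The phosphate carrier gene was the highest member. Slc25a3, which brings phosphate into the matrix for ATP synthesis, was at 63.4 TPM in replicate 2 and 64.2 TPM in replicate 1, higher than 98.8% of protein-coding genes. Its relatives that exchange ATP-Mg for phosphate and respond to calcium were far lower. Slc25a23 was at 1.46 TPM in replicate 2 and 2.28 TPM in replicate 1, Slc25a25 at 1.33 TPM in replicate 2 and 2.35 TPM in replicate 1 and Slc25a24 at 1.95 TPM in replicate 2 and 1.51 TPM in replicate 1. Slc25a41, a further ATP-Mg carrier, had 7 counts in replicate 2 and 0 in replicate 1. Together these 5 genes held 25.1% ± 3.73 of the family's TPM (SD, n = 2).

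The ADP/ATP carriers export ATP from the matrix in exchange for ADP. Slc25a5, the form of proliferating cells, was at 40.8 TPM in replicate 2 and 63.1 TPM in replicate 1. Slc25a4, the form that leads in heart and muscle, was at 20.99 TPM in replicate 2 and 31.27 TPM in replicate 1. Slc25a5 was higher than Slc25a4 in both libraries, with no overlap between their values, and the ratio of their TPM was 1.94 in replicate 2 and 2.02 in replicate 1 (1.98 ± 0.0524, SD, n = 2). The germ cell form Slc25a31 had 1 count in replicate 2 and 3 counts in replicate 1, at or under the limit of 3 counts, and the testis markers Prm1 and Tnp1 had none. Slc25a5 held 66.5% ± 0.585 of the TPM of the ADP/ATP carriers, and these held 27.6% ± 3.54 of that of the family (SD, n = 2). The processed copy Slc25a5-ps had no count in either library; unnamed copies elsewhere in the genome were not searched.

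On the X chromosome Slc25a5 lies 18448 bases downstream of another member, Slc25a43, on the same strand. The neighbours were far apart in level, with Slc25a43 at 0.15 TPM in replicate 2 and 0.33 TPM in replicate 1, so that the ratio of Slc25a5 to Slc25a43 was 272 in replicate 2 and 191 in replicate 1. Their promoter windows are shown for this contrast. Each runs from 250 bases before to 50 bases after the start in RefSeq (GRCm38.p6), on the plus strand, at chrX:36795347-36795646 for Slc25a5 and chrX:36743382-36743681 for Slc25a43. Capitals mark the letters AGATAA read on either strand, a form of the motif bound by GATA factors.
Slc25a5 promoter: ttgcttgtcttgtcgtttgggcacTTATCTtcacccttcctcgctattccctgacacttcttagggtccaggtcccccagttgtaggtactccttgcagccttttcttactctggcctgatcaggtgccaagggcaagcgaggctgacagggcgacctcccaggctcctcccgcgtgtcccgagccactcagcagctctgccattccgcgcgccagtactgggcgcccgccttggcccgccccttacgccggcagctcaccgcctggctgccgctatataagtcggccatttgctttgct
Slc25a43 promoter: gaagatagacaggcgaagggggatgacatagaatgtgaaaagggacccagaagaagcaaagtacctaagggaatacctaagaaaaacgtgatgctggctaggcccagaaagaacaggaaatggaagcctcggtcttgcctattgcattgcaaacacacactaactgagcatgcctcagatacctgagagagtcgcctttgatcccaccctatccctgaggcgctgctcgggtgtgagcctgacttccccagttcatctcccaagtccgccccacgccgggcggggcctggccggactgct
The window of Slc25a5 holds AGATAA on its minus strand and that of Slc25a43 does not hold these letters. Near its start the Slc25a43 window does hold AGATAG, which differs in the last letter. Such other forms of the motif were not searched, so the windows cannot be said to differ in GATA motifs. The ratio of observed to expected CpG pairs was 0.669 in the Slc25a5 window and 0.491 in the Slc25a43 window, and GC content was 61.0% in the Slc25a5 window and 54.7% in the Slc25a43 window. Of the 45 windows that the table gives for 35 members, 3 (6.67%) hold AGATAA, against 11.2% of 32851 windows of the same length, so these letters were not more common in members. A match describes the letters in the window and is not a binding site.

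Further motifs and the CpG content of the windows were described in the same way. The letters CCAAT, on either strand, were in 21 of 45 member windows (46.7%), against 37.4% of all windows. GCATGCGC, the motif of NRF1, which is known for its role at nuclear genes of mitochondria, was in 2 member windows (4.44%), against 2.71%, and both belong to genes that were not expressed, Slc25a31 and Slc25a54. CCGGAAGT, an ETS motif, was in 1 member window (2.22%), that of Slc25a20, against 3.89%. For the CpG ratio each gene was counted once, and a gene with several windows by its highest ratio. The median CpG ratio was 0.669 for the 23 members with a window that passed the threshold in both libraries and 0.616 for the other 12 members. Over protein-coding genes with a window it was 0.835 for those that passed and 0.350 for the rest. The median of these 12 members was therefore near that of the expressed members, a described difference with no test. They include Slc25a16, Slc25a33 and Slc25a14, which passed in 1 library, so they are not a set of silent genes. Their range was 0.0384 for Slc25a34 to 1.02 for Slc25a40. Those with a mean of 0.24 TPM or less ran from 0.0384 for Slc25a34 to 0.826 for Slc25a31.

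The carriers of glutathione and carnitine were led by Slc25a39. Slc25a39 brings glutathione into mitochondria and was at 21.4 TPM in replicate 2 and 26.7 TPM in replicate 1, higher than 97.0% of protein-coding genes. Its order against Slc25a4 differed between the libraries, so these neighbours in rank did not differ beyond their spread. Slc25a40, the second glutathione carrier, was at 0.49 TPM in both. Slc25a39 thus held 98.0% ± 0.312 of the TPM of this pair (SD, n = 2). Slc25a20 exchanges carnitine for acylcarnitine so that fatty acids can be oxidized, and it was at 3.07 TPM in replicate 2 and 2.83 TPM in replicate 1. All 3 genes of glutathione synthesis passed 1 TPM in both libraries, with Gclm at 13.6 TPM in replicate 2 and 16.1 TPM in replicate 1. Among 5 carnitine enzymes 3 passed, led by Cpt1a at 8.80 TPM in replicate 2 and 7.99 TPM in replicate 1.

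All 4 carriers of di- and tricarboxylates passed the threshold. Slc25a11, which exchanges oxoglutarate for malate, was at 10.6 TPM in replicate 2 and 13.9 TPM in replicate 1. The citrate carrier Slc25a1 was at 8.53 TPM in replicate 2 and 12.7 TPM in replicate 1. Slc25a10, which exchanges malate or succinate for phosphate, was at 4.44 TPM in replicate 2 and 7.93 TPM in replicate 1, and the oxoadipate carrier Slc25a21 at 3.80 TPM in replicate 2 and 3.83 TPM in replicate 1. Slc25a11 lay above Slc25a1 in each library, although their values overlapped across the libraries, and both lay above Slc25a10 in each library. Of 4 genes that use exported citrate 3 passed 1 TPM in both libraries, with the fatty acid synthase Fasn at 20.6 TPM in replicate 2 and 37.1 TPM in replicate 1 and the ATP citrate lyase Acly at 17.6 TPM in replicate 2 and 25.8 TPM in replicate 1.

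Among 9 carriers of amino acids 6 passed. Slc25a38, which brings in glycine for heme and is mutated in a human sideroblastic anemia, was the highest at 6.93 TPM in replicate 2 and 10 TPM in replicate 1. The mitoferrins, left out by the rule, lay at a like level, Slc25a37 at 6.72 TPM in replicate 2 and 5.66 TPM in replicate 1 and Slc25a28 at 5.34 TPM in replicate 2 and 6.80 TPM in replicate 1. Both aspartate/glutamate exchangers of the malate-aspartate shuttle were expressed: Slc25a12 was at 5.78 TPM in replicate 2 and 6.50 TPM in replicate 1, and Slc25a13 at 1.38 TPM in replicate 2 and 1.27 TPM in replicate 1. The 4 enzymes of that shuttle all passed as well, from Got1 at 6.67 TPM in replicate 2 and 7.70 TPM in replicate 1 to Mdh2 at 26.0 TPM in replicate 2 and 36.2 TPM in replicate 1. Slc25a44, a carrier of branched-chain amino acids, was at 4.63 TPM in replicate 2 and 5.27 TPM in replicate 1.

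The remaining amino acid carriers were all below Slc25a44. The glutamate carrier Slc25a22 was at 1.53 TPM in replicate 2 and 3.56 TPM in replicate 1, while its relative Slc25a18 was at 0.05 TPM in replicate 2 and 0.04 TPM in replicate 1. For ornithine, Slc25a15 was at 1.08 TPM in replicate 2 and 2.21 TPM in replicate 1, and Slc25a2 had 41 counts in replicate 2 and 30 counts in replicate 1. Of 7 genes of the ornithine and urea cycle 2 passed, the ornithine aminotransferase Oat at 16.4 TPM in replicate 2 and 20.7 TPM in replicate 1 and Asl at 1.99 TPM in replicate 2 and 2.36 TPM in replicate 1. Slc25a29, which carries basic amino acids, was at 0.35 TPM in replicate 2 and 0.64 TPM in replicate 1.

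Among 9 carriers of other nucleotides and cofactors 6 passed. The highest was Slc25a51, which brings NAD into the matrix, at 10.6 TPM in replicate 2 and 13.0 TPM in replicate 1. Slc25a17, a carrier of the peroxisome rather than of mitochondria, was at 4.80 TPM in replicate 2 and 5.05 TPM in replicate 1. The pyrimidine nucleotide carrier Slc25a36 was at 3.03 TPM in replicate 2 and 3.13 TPM in replicate 1. Slc25a42, for coenzyme A, was at 1.56 TPM in replicate 2 and 2.37 TPM in replicate 1. Slc25a32, for folate and FAD, was nearly equal to it at 1.58 TPM in replicate 2 and 2.33 TPM in replicate 1. Below these genes lay Slc25a16 at 0.98 TPM in replicate 2 and 1.35 TPM in replicate 1. Slc25a33 was at 0.79 TPM in replicate 2 and 1.34 TPM in replicate 1, and the S-adenosylmethionine carrier Slc25a26 at 0.39 TPM in replicate 2 and 0.66 TPM in replicate 1.

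Several members known mainly from other tissues were near 0. The uncoupling-like brain gene Slc25a27 had 0 counts in replicate 2 and 2 counts in replicate 1, and Slc25a34, known from muscle, had 2 counts in replicate 2 and 6 counts in replicate 1. Slc25a48 and Slc25a54 had none in either library, which with the limit of 3 counts allows up to 0.0330 CPM in replicate 2 and 0.0461 CPM in replicate 1. Other such genes were present. Slc25a30, first described in kidney, was at 7.27 TPM in replicate 2 and 6.95 TPM in replicate 1, and Slc25a47, known from liver, at 1.08 TPM in replicate 2 and 1.44 TPM in replicate 1, although the kidney marker Umod and the liver marker Alb were at 0 TPM in both. The other liver marker, Apoa1, was at 0.06 TPM in both, with 22 counts in replicate 2 and 12 counts in replicate 1. Slc25a46, a relative that sits in the outer membrane and acts in mitochondrial shape, was at 2.92 TPM in replicate 2 and 2.96 TPM in replicate 1. The last members lay near the threshold, Slc25a14 at 1.04 TPM in replicate 2 and 0.96 TPM in replicate 1, Slc25a45 at 1.07 TPM in replicate 2 and 1.26 TPM in replicate 1, and Slc25a53 at 0.72 TPM in replicate 2 and 0.88 TPM in replicate 1.

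**Figure D2:**
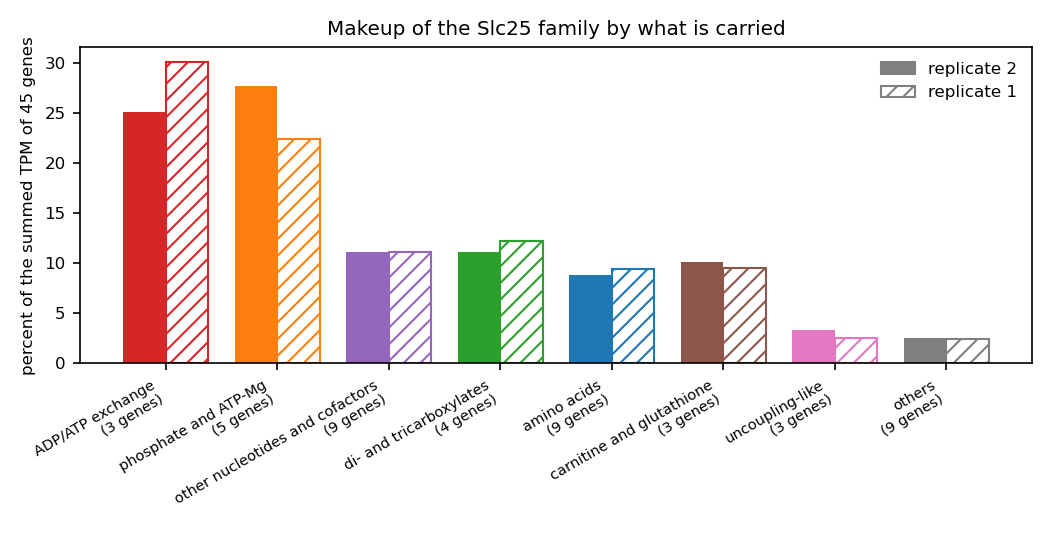
Share of the summed TPM of the 45 genes held by each group of carriers, with filled bars for replicate 2 and hatched bars for replicate 1. ADP/ATP exchange held 25.1% in replicate 2 and 30.1% in replicate 1, phosphate and ATP-Mg carriers 27.7% in replicate 2 and 22.5% in replicate 1, and the uncoupling-like carriers under 4% in both.

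The groups other than the phosphate and ADP/ATP carriers each held less than 13% of the family's TPM in either library. Order between the leading groups differed between the libraries, ADP/ATP exchange being below phosphate and ATP-Mg carriers in replicate 2 and above them in replicate 1. Proteins that bring carriers to the inner membrane were all expressed: the 13 listed genes of the import path all passed the threshold, with a median of 13.7 TPM, from the lipid kinase Agk at 2.96 TPM in replicate 2 and 3.95 TPM in replicate 1 to Timm8b, the highest by its mean, at 23.5 TPM in replicate 2 and 26.0 TPM in replicate 1. Among 5 relatives of the family that carry other symbols 3 passed, with Ucp2 at 20.7 TPM in replicate 2 and 30.2 TPM in replicate 1, while Ucp1 of brown fat had no counts. The 3 channels of the outer membrane, which let metabolites reach the carriers, were led by Vdac1 at 34.0 TPM in replicate 2 and 41.3 TPM in replicate 1, and both subunits of the pyruvate carrier were expressed, Mpc1 at 11.7 TPM in replicate 2 and 14.4 TPM in replicate 1 and Mpc2 at 7.40 TPM in replicate 2 and 7.17 TPM in replicate 1.

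The libraries were then compared gene by gene, as replicate 2 over replicate 1 on estimated counts scaled by TMM (trimmed mean of M-values), where either library had 10 or more counts for the gene. Intervals are exact Clopper-Pearson 95% intervals and cover counting error only. With 1 library a side there is no test. Of the 45 members 39 had enough counts. Their median log2 ratio was 0.0061, and over 12107 protein-coding genes it was 0.017. No member was 2-fold or more higher in replicate 2, against 2.83% of protein-coding genes, and 1 member was 2-fold or more lower, against 3.18%. Both counts are near the background share. On this scale 21 members were above 0 and 18 (46.2%) below it, beside 47.9% of protein-coding genes below 0, but 16 were above and 23 below with upper quartile scaling, and 17 above and 22 below with total counts, so a log2 ratio close to 0 has no firm direction.

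The member past 2-fold was Slc25a35, at chr11:68968131-68974365 on the plus strand. It had 345 counts in replicate 2 and 641 counts in replicate 1, at 0.29 TPM in replicate 2 and 0.85 TPM in replicate 1, and a log2 ratio of -1.34 (95% interval -1.54 to -1.15). Its gene overlaps Rangrf on the opposite strand, which had 2234 counts in replicate 2 and 2648 counts in replicate 1, and it is not stated whether the counting used strand, so reads of these genes may not have been told apart. The same limit holds for Slc25a11 with Rnf167 (6099 counts in replicate 2 and 3547 counts in replicate 1), for Slc25a25 with Naif1 (996 counts in replicate 2 and 623 counts in replicate 1) and for Slc25a18 with Atp6v1e1 (7267 counts in replicate 2 and 3391 counts in replicate 1). It also holds for Slc25a21 with Pax9 (500 counts in replicate 2 and 493 counts in replicate 1). Further such pairs were Slc25a46 with B930094E09Rik (282 counts in replicate 2 and 317 counts in replicate 1) and Slc25a26 with Lrig1 (64 counts in replicate 2 and 78 counts in replicate 1). Of the 36 members where either library had 100 counts, 4 lay outside the range that holds the middle 90% of such protein-coding genes, -0.66 to 0.61. Besides Slc25a35 these were Slc25a15 at -0.75 (-0.85 to -0.65), Slc25a22 at -0.72 (-0.84 to -0.60) and Slc25a24 at 0.64 (0.54 to 0.74). The highest ratio, 0.65 for Slc25a18, rests on 26 counts in replicate 2 and 12 counts in replicate 1, with an interval of -0.37 to 1.79 that includes 0.

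The abundant members moved apart by less than 2-fold and not all the same way. Slc25a3 had 36716 counts in replicate 2 and 22012 counts in replicate 1 and a log2 ratio of 0.29 (0.26 to 0.31), although its ratio of deposited TPM was -0.02. Slc25a5 had 17564 counts in replicate 2 and 16441 counts in replicate 1 and a ratio of -0.35 (-0.39 to -0.32). Slc25a4 was at -0.30 (-0.34 to -0.26), close to Slc25a5. Slc25a39 was at 0.05 (0.00 to 0.09) and Slc25a38 at -0.16 (-0.22 to -0.09).

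In the same libraries the erythroid markers were higher in replicate 2 in sum. Their TPM together was 13685 in replicate 2 and 6556 in replicate 1, most of it from the globin genes. By TMM-scaled counts 5 of the 9 were 2-fold or more higher, against the 2.83% of all protein-coding genes, from Hba-a1 at a log2 ratio of 1.15 to Alas2, the first enzyme of heme synthesis in red cells, at 1.78. The rest were Tal1 at 0.98, Gata1 at 0.43, Epor at 0.24 and Klf1 at 0.18. In TPM, Klf1 (30.7 in replicate 2 and 32.9 in replicate 1) and Epor (30.4 in replicate 2 and 31.2 in replicate 1) were lower in replicate 2. The summed TPM of the markers of other blood and connective cells was 25.37 in replicate 2 and 35.02 in replicate 1, of which Pf4 alone made up 24.69 in replicate 2 and 34.06 in replicate 1. Their part in the carrier ratios was not tested. In such bulk samples fewer cells of a type and less RNA per cell cannot be told apart. On the deposited TPM scale the median log2 ratio was -0.28 over 11971 protein-coding genes and -0.39 over the 39 members, and 32 of these members were below 0 and 6 above, beside 76.5% of the protein-coding genes below 0. The lower TPM of most carriers in replicate 2 thus goes with a shift of protein-coding genes at large.

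**Figure D3:**
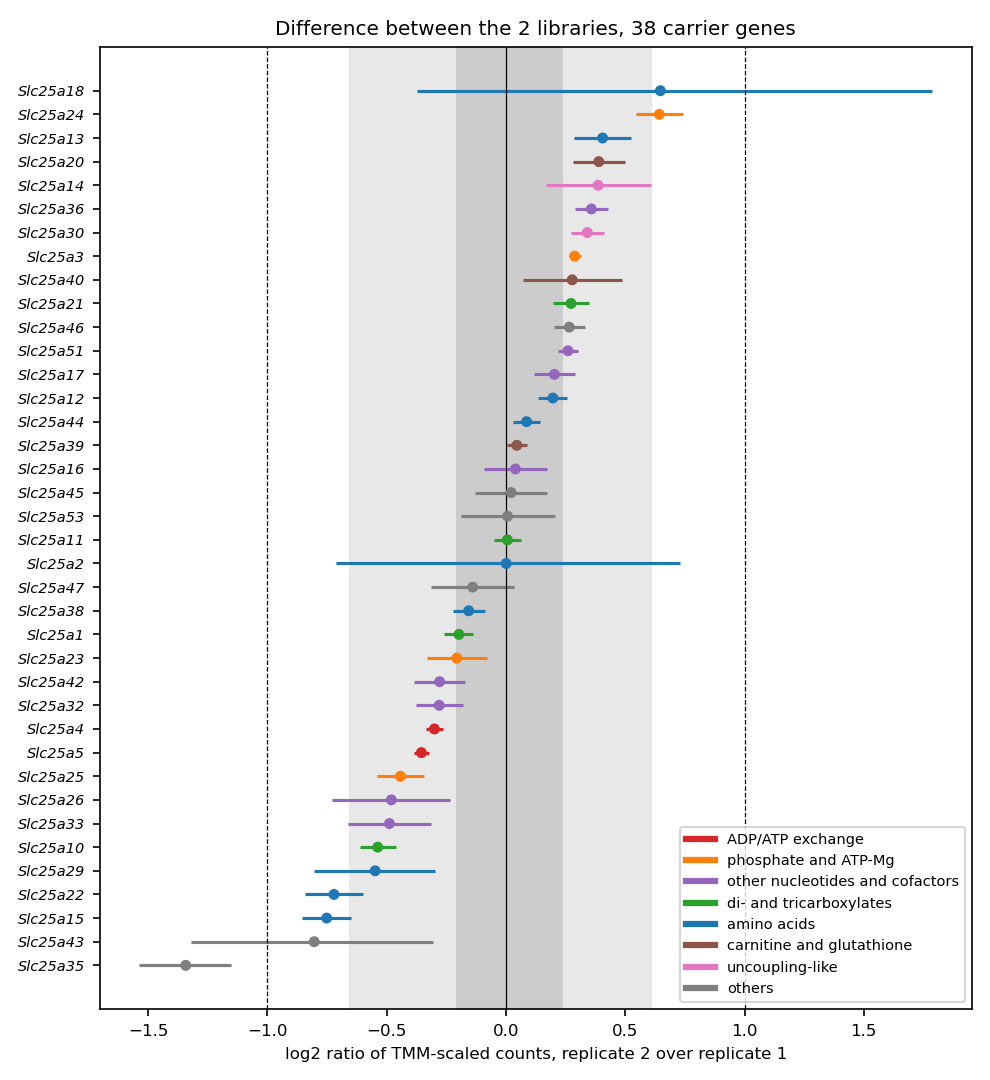
Log2 ratio of TMM-scaled counts, replicate 2 over replicate 1, for 38 carrier genes in order of the ratio, with bars for the exact 95% counting interval. Dark and light grey bands hold the middle 50% and 90% of protein-coding genes with 100 or more counts, dashed lines mark 2-fold, and Slc25a35 at -1.34 is the gene past them.

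Transcript estimates were compared for the 22 members that passed 1 TPM in both libraries and have at least 2 annotated transcripts. In 20 of them the same transcript led in both libraries, beside 92.9% of 6058 genes chosen in the same way. The exceptions were Slc25a22, with 18 annotated transcripts, and Slc25a51, where leading shares were small. In Slc25a22 a protein-coding transcript led with 27.0% of the TPM in replicate 2, and a transcript annotated as a target of nonsense-mediated decay led with 22.8% in replicate 1. In Slc25a51 a form of 4433 bases led with 35.5% in replicate 2 and a form of 1005 bases with 42.1% in replicate 1, both of them protein-coding. The next smallest leading shares included those of Slc25a42, Slc25a23 and Slc25a44, with means of 44.5% to 54.6%. Slc25a5 and Slc25a24 were at the other end, with more than 98% in 1 transcript.

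Protein-coding transcripts held most of the TPM of nearly every member. Their median share over the 22 members was 91.4% in replicate 2 and 88.1% in replicate 1, and over all 6058 genes it was 88.8% in replicate 2 and 86.3% in replicate 1. The share was lower in replicate 1 in 16 of the 22 members, beside 57.9% of all genes. The median for retained intron transcripts was 3.64% in replicate 2 and 5.61% in replicate 1 over members, and over all genes it was 2.95% in replicate 2 and 3.78% in replicate 1. Slc25a42 had the largest such share, 45.2% in replicate 2 and 50.8% in replicate 1. In Slc25a4 the retained intron transcript held 27.3% in replicate 2 and 27.0% in replicate 1, while in Slc25a5 the class held 1.42% in replicate 2 and 1.57% in replicate 1, so the ADP/ATP carriers differed in this respect by more than the spread between libraries. In total RNA, reads of RNA not yet spliced cannot be told apart here from those of retained intron transcripts, so these shares are estimates.

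Slc25a12 was the member whose protein-coding share was under 50% in both libraries. A decay target 2392 bases long held 55.7% of its TPM in replicate 2 and 63.3% in replicate 1. The protein-coding transcript, 6351 bases long, held 15.9% in replicate 2 and 11.7% in replicate 1. In counts, which are not divided by length, the decay target had 2873 in replicate 2 and 2220 in replicate 1, and the protein-coding transcript 2274 in replicate 2 and 1135 in replicate 1. At 0.92 TPM in replicate 2 and 0.76 TPM in replicate 1, that protein-coding transcript was below the TPM of Slc25a13 in both libraries, whereas the whole gene Slc25a12 was 4.19-fold above it in replicate 2 and 5.12-fold in replicate 1. These transcripts share exons, so the split is an estimate.

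**Figure D4:**
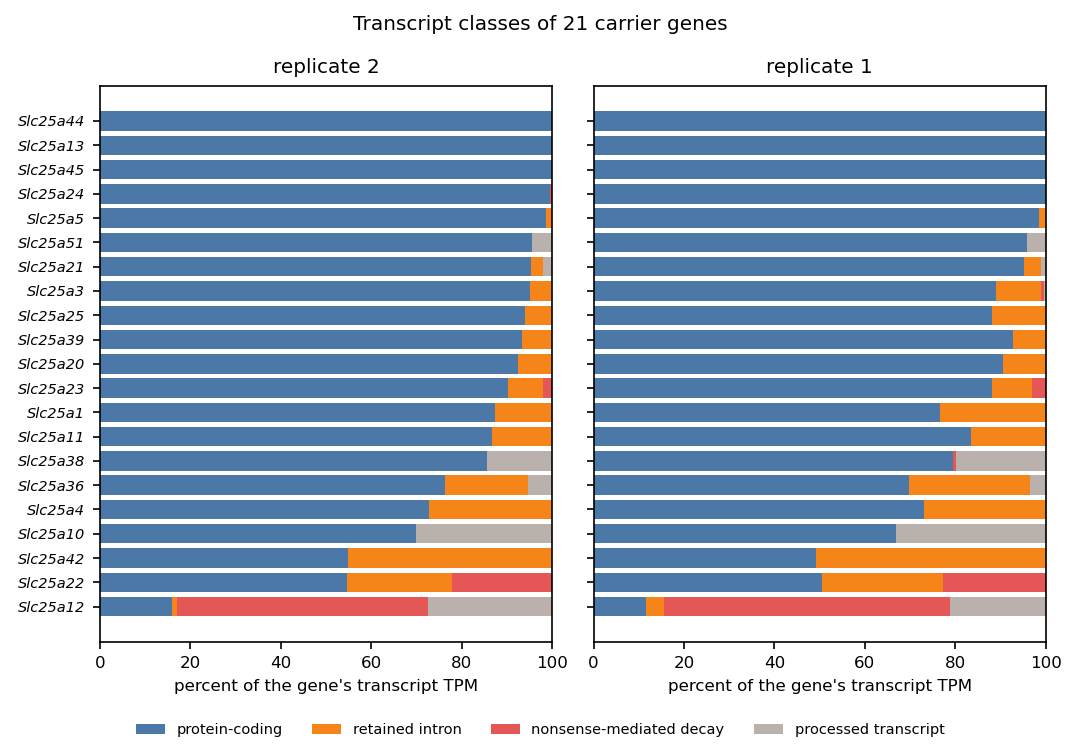
Percent of each gene's transcript TPM in 4 annotated transcript classes for 21 carrier genes, replicate 2 on the left and replicate 1 on the right, in order of the protein-coding share in replicate 2. Slc25a12 at the bottom is led by nonsense-mediated decay transcripts, with more than 50% in both libraries, and Slc25a42 has the largest retained intron share.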

How the data were processed

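Per the readme deposited with the samples, the authors used mm10 and GENCODE M4; no source used here names the aligner or counter. The authors' deposited tables of genes and transcripts hold, per the file headers, an estimated count that need not be whole, TPM, FPKM, posterior means and SDs, and each transcript's percent of its gene's TPM. FPKM and posterior means as deposited served as alternatives. Names and coordinates (1-based, GRCm38) came from GENCODE M21 by identifier without version; 42462 of 43346 Ensembl rows matched. Estimated counts were rounded and scaled over the whole table with edgeR 4.0.16 (TMM), 0.5 was added, and ratios were given where either library had 10 or more counts; DESeq2 1.42.0 size factors were an alternative. The ratio script was tested on simulated data. Fragments were selected at 300 to 350 bases, per the labels. The libraries' counts differ by more than sampling noise, so they are not copies of each other. Intervals and limits cover counting error only. Members and lists were chosen with earlier results of these data known. By the naming rule the text names members among the 20 highest, any at 2-fold, the ADP/ATP, glycine and glutathione carriers, members known from other tissues, those at 0 and those with the smallest leading transcripts; the other members named for a ratio, a transcript class or their place in a group, and Slc25a12 and Slc25a4 transcripts, were chosen after their values were seen. Of the members, 1 is counted in all totals and medians but is not reported by itself here and is not drawn in the plots of single genes.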

Additional observations from a re-analysis of the deposited data

How the results depend on the processing

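The number of members expressed in both libraries was 28 and fell to 18 at 2 TPM and 10 at 5 TPM. Thresholds of 0.5 TPM, FPKM, posterior mean TPM and TPM rescaled to nuclear protein-coding genes gave 29 to 37. With estimated counts in place of TPM, not divided by length, the ADP/ATP carriers held 21.5% of the family sum, Slc25a5 57.3% of the ADP/ATP carriers and the 5 highest members 52.1%, and with posterior mean TPM the last was 63.4%. The median member level was 7.29 in FPKM, another scale. Leaving out 1 library gave 29 to 30 expressed members, a median of 1.46 to 2.28 TPM and shares of 25.1% to 30.1%, 66.0% to 66.9% and 63.6% to 63.9%; it leaves no ratio. With no count minimum 1 member was 2-fold higher and 4 were 2-fold lower, all the added ones under 10 counts. At 1.5-fold 2 members were higher and 4 lower. The share of all protein-coding genes was not computed at 1.5-fold or with no count minimum, so these counts have no background beside them. With the ratio of deposited TPM, an alternative chosen after seeing the data, 4 were 2-fold lower, beside 7.67% of all protein-coding genes, and the median log2 ratio was -0.39, beside -0.28 over all. Under DESeq2 size factors, upper quartile scaling, total counts, a minimum of 100, 5 added or posterior mean counts, the numbers past 2-fold stayed at 0 and 1. At 5 TPM 8 of 9 members had the same leading transcript, beside 93.8% of 2436 genes chosen in the same way. No paired analysis was possible because there is 1 group. Members under 10 counts cannot be ordered at this depth.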
